A study of Mus musculus with 9 samples.

Results

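Hearts of adult mice at 8 weeks after birth (8w, 3 libraries) were compared with hearts of newborn mice at 3 days (3d, 3 libraries), out of 9 libraries in all; the 3 remaining libraries, of embryonic day 18 (E18), entered the model only to estimate the spread between libraries. Both stages were wild type with no treatment named, and the labels call the material heart tissue and also cardiocytes, from which total RNA was sequenced. The labels number the libraries of a stage as biological replicates, without saying whether each came from its own animal or from a pool, so p-values here measure the spread between these samples. The 6 libraries were chosen by their stage label alone, and genes of chromosomes M and Y were left out, which kept 22092 coding genes, of which 11915 had a mean of at least 1 FPKM (a fragment count scaled to transcript length and library depth) over the 9 libraries and were tested.

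In the first weeks after birth the rodent heart stops growing by cell division and grows by enlargement of its muscle cells. Its fuel changes from glucose and lactate to fatty acids, mitochondria and the calcium-storing membranes expand, and fetal versions of contractile proteins give way to adult ones. The labels name heart tissue and also cardiocytes, and markers of several cell types were found in the libraries. A lower value can therefore mean fewer cells of a type or less of that RNA per cell, and these cannot be told apart.

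The 8w libraries held 12838568 to 15612508 fragments and the 3d libraries 12196703 to 12981660. All 12 cardiomyocyte markers except Ttn were well above 0 at both stages, and their summed FPKM was 37795, 39217 and 40531 at 8w against 23106, 22300 and 21722 at 3d; Ttn, the gene of the largest muscle protein, is listed at 0 in all libraries of the coding table. The library 3d replicate 1 stood apart. It had 27.6% of its FPKM in lncRNAs, against 21.3% and 21.0% in the other 3d libraries, and the highest summed atrial markers (1350 FPKM, against 585 and 579). Atrial markers also varied at 8w, with 1073, 729 and 251 FPKM, and lung epithelial markers, led by Sftpc, summed to 0.0195, 103 and 0.0 FPKM at 8w and to 0.447, 57.1 and 32.3 FPKM at 3d. The 20 coding genes with the most estimated counts took 13.9% ± 0.361 of coding counts at 8w and 9.17% ± 0.0577 at 3d (SD, n = 3 each). These counts are not scaled to transcript length. The exact two-sided permutation p was 0.1, the smallest that 3 against 3 libraries allow.

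Each library was centred on the median log2(FPKM + 1) of the tested genes, and fold changes below are differences on that scale, 8w over 3d, which understate the change of genes at low FPKM. On the deposited scale the median gene was 0.18 lower at 8w (log2 difference -0.18), and centring sets that shift to 0; without centring 2551 genes were called higher and 4425 lower. Of the 11915 tested genes, 6575 (55.2%) passed an adjusted p of 0.05 (limma with Benjamini-Hochberg adjustment), 3382 (28.4%) higher and 3193 (26.8%) lower at 8w. Most of these changes were small, since 82.9% of tested genes lay within 2-fold. At least 2-fold, 1105 genes (9.27%) were higher and 924 (7.75%) lower; at least 4-fold, 215 were higher and 219 lower. With more than every other gene called, the count of a group is read below against these shares and beside its median, where the median of all tested genes is 0.

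**Figure D1:**
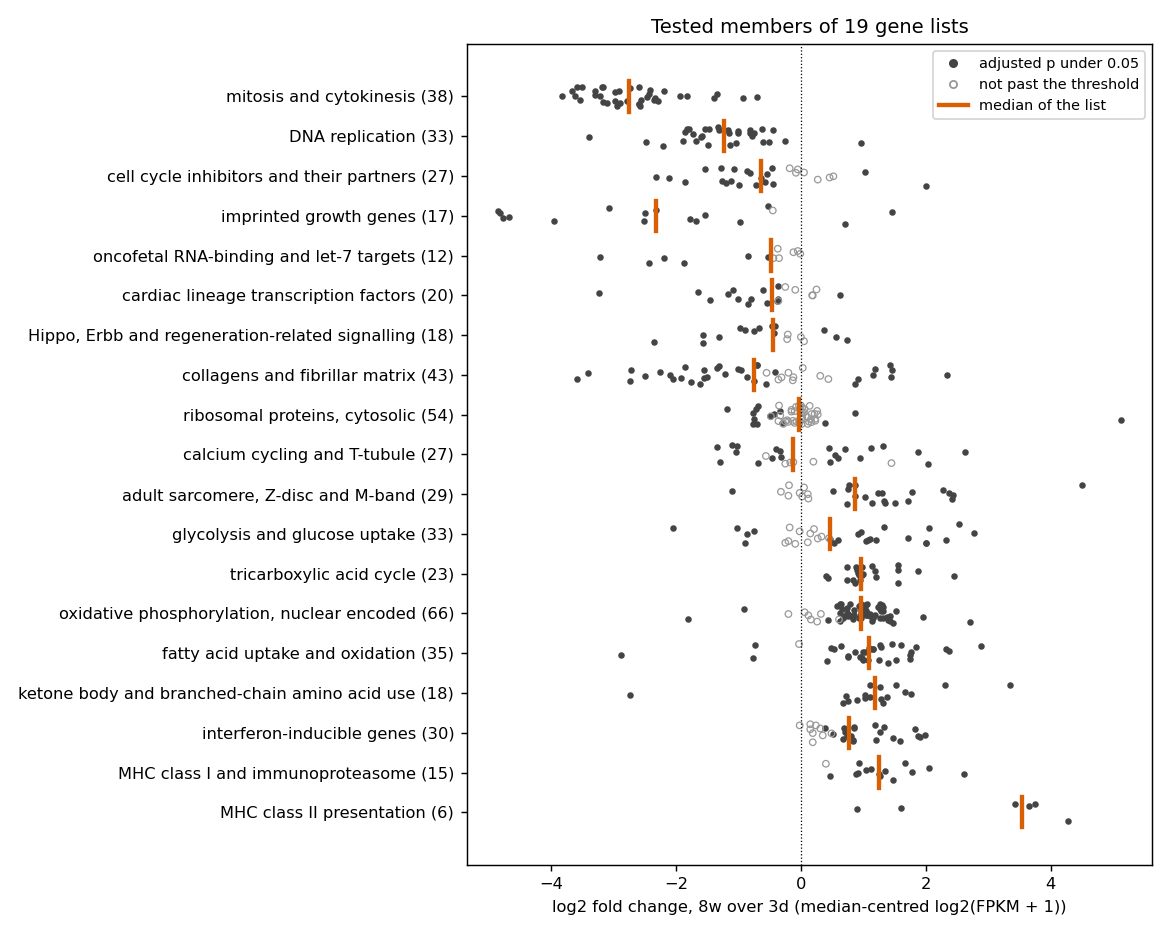
Log2 fold change, 8w over 3d, on the x axis for every tested member of 19 gene lists on the y axis, with the number tested in brackets; filled points passed an adjusted p of 0.05, open points did not, and the orange bar is the list's median. Mitosis genes all lie left of 0 with a median of -2.76, tricarboxylic acid cycle genes all lie right of 0 with a median of 0.97, and ribosomal protein genes have a median of -0.03, with Rpl3l apart at 5.13.

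Genes of cell division were lower at 8w, more so for mitosis than for DNA replication. Of 38 mitosis and cytokinesis genes, all tested, 38 fell and 0 rose, with a median log2 fold change of -2.76 and a range of -3.82 to -0.7. Their summed FPKM was 52.6, 54.7 and 45.0 at 8w against 510, 689 and 609 at 3d. Ccnb1, the cyclin that with Cdk1 drives entry into mitosis, had 0.538, 0.384 and 0.927 FPKM in 8w hearts against 18.5, 24.9 and 19.8 FPKM in 3d hearts (log2 fold change -3.59 ± 0.18 SE, adjusted p = 6.56e-08). Top2a, which untangles chromosomes, had 3.17, 2.96 and 1.5 FPKM at 8w against 40.9, 55.6 and 51.5 FPKM at 3d (-3.67 ± 0.2, adjusted p = 9.79e-08). Neither gene's stages overlapped, as in 61.3% of all tested genes. Both genes also met the naming rule by size, which required this, so the lack of overlap is no result. The lowest 3d library, which was replicate 1 for both, was more than 10 times above the highest 8w library.

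The other regulators of mitosis fell in the same range. Ccna2 (cyclin A) changed by -3.82 ± 0.2, the proliferation marker Mki67 by -3.62 ± 0.15, Birc5 (survivin) by -3.54 ± 0.12, the kinase Aurkb by -3.3 ± 0.12, and Ect2 and Anln, which build the furrow that divides the cell, by -3.18 ± 0.19 and -2.98 ± 0.15. Foxm1, a transcription factor of the mitotic programme, had 0.575, 0.592 and 0.648 FPKM at 8w against 12.2, 11.9 and 6.73 FPKM at 3d, a change of -2.59 ± 0.18. Of 33 DNA replication genes tested, 32 fell and 1 rose, with a median of -1.23. Rrm2, a subunit of the enzyme that makes deoxyribonucleotides, had 2.53, 2.58 and 1.64 FPKM at 8w against 31.4, 42.9 and 38.1 FPKM at 3d (-3.39 ± 0.18, adjusted p = 1e-07). Uhrf1, which copies DNA methylation onto new strands, changed by -2.48 ± 0.18 and Tk1 (thymidine kinase) by -2.2 ± 0.15. Pcna, the sliding clamp of the replication fork, changed less, with 19, 28.1 and 23.8 FPKM at 8w against 36.1, 51.1 and 50.5 FPKM at 3d (-0.75 ± 0.17, adjusted p = 0.00337). The single member that rose was Ung, a uracil-removing repair enzyme, with 6.53, 7.18 and 6.96 FPKM at 8w against 4.61, 3.71 and 2.55 FPKM at 3d (0.97 ± 0.13).

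Among 27 tested inhibitors of the cell cycle and their partners, 2 rose (4 without 8w replicate 1) and 18 fell (median -0.64). Cdkn1c, an inhibitor of cyclin-dependent kinases expressed from the maternal allele, was itself lower, at 5.2, 3.65 and 3.66 FPKM at 8w against 23.9, 27.9 and 32.9 FPKM at 3d (-2.32 ± 0.19). Cdkn1a (p21), an inhibitor of the same kinases, had 12.3, 15.6 and 24.7 FPKM at 8w against 12.8, 15.9 and 11.1 FPKM at 3d, overlapping values that did not pass the test (0.52 ± 0.21, adjusted p = 0.0542). Cdkn1a did pass with edgeR (0.56, adjusted p = 0.0385) and DESeq2 (0.58, adjusted p = 0.0185) and without 3d replicate 2 (0.64) or 8w replicate 1 (0.72). The D cyclins Ccnd1 and Ccnd2 had mean values of 21.4 and 39.1 FPKM at 8w against 27.7 and 47.1 FPKM at 3d, and neither passed the test on the centred scale (adjusted p = 0.102 and 0.455), although both did on the deposited scale (log2 fold changes -0.36 and -0.26) and after quantile normalization (-0.28 for each). The largest of the 2 rises was Ccng1, a cyclin that responds to p53, with 207, 389 and 392 FPKM at 8w against 72.1, 93.0 and 104 FPKM at 3d (2.0 ± 0.23, adjusted p = 2.54e-05). E2f8, a repressor of the E2F family, fell by 2.11 ± 0.12 on the log2 scale, and Rbl1 (p107), a relative of the retinoblastoma protein, fell by 1.28 ± 0.13.

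**Figure D2:**
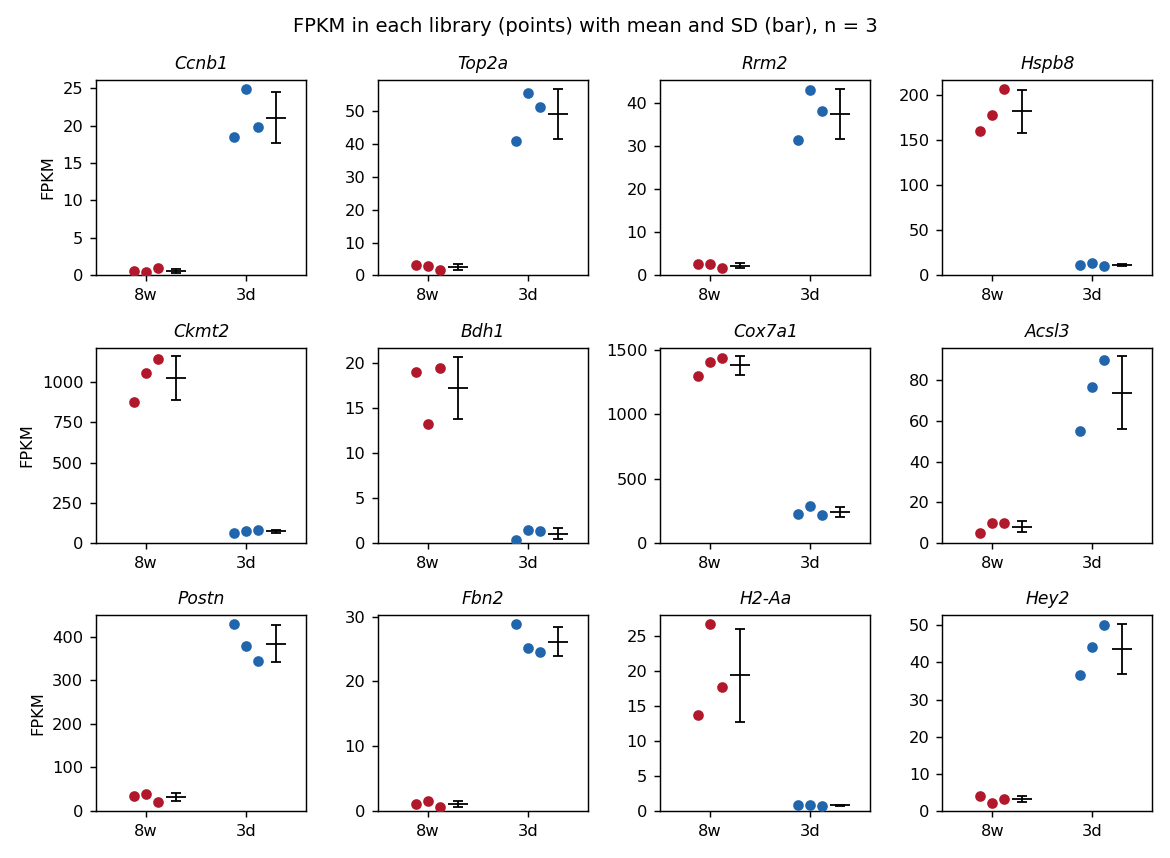
FPKM on the y axis, each panel on its own scale from 0, for 12 genes in the 8w (red) and 3d (blue) libraries; points are libraries, and the black marker is the mean with its SD (n = 3). In none of the 12 genes do the stages overlap, as in 61.3% of all tested genes. Several of the 12, such as Ccnb1, Hspb8 and Ckmt2, met a naming rule that required this. For Ccnb1, Top2a, Rrm2 and Fbn2 all 8w libraries lie below 4 FPKM.

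Promoters of these genes were searched for known cell cycle motifs. Mitotic genes are classically bound through the cell-cycle genes homology region (CHR, letters TTTGAA) and CCAAT boxes, and replication genes through E2F sites (searched as TTGGCGC and, as variants of it, as TTCCCGC and also as TTCGCGC); all motifs were searched on both strands in RefSeq promoters (GRCm38.p6) running from 250 bases before to 50 bases after the start. RefSeq promoters were given for 32 of the 38 mitosis genes that fell (34 promoters) and 27 of the 32 replication genes that fell (34 promoters). The CHR letters stood in 73.5% of the mitosis promoters but in 8.82% of the replication promoters, beside 17.9% of all 32851 promoters and 11.8% of the 11439 promoters of tested genes. The E2F letters showed the other pattern, at 17.6% of mitosis and 64.7% of replication promoters, beside 8.07% of all promoters and 14.4% of those of tested genes. CCAAT stood in 73.5% and 58.8% of them, beside 37.4% of all promoters, and CHR and CCAAT together in 64.7% and 5.88%, beside 6.95%. A reversed CCAAT box and the first E2F form can share letters. These matches are a description of the letters and no test was made. The 100 bases before the start are shown for 3 named mitosis genes that hold both CHR and CCAAT there, with both motifs in capitals, and for Uhrf1, the named replication gene with an E2F match there, with that match in capitals (chr11:99024190-99024289, chr10:69352913-69353012 and chr4:118437344-118437443 on the minus strand, and chr17:56303237-56303336 on the plus strand).
Top2a: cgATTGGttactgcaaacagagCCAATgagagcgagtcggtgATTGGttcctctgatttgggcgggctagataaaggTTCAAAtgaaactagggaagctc
Cdk1: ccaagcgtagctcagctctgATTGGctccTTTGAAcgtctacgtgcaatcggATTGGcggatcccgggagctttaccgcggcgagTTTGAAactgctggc
Cdc20: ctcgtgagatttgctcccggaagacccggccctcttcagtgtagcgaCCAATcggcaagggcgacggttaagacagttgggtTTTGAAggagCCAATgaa
Uhrf1: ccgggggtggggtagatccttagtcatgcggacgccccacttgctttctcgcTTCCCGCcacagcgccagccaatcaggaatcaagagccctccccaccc

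Imprinted genes that govern fetal growth were lower at 8w. Of 17 tested, 14 fell and 2 rose, with a median of -2.32, and 5 of them, Dlk1, Mest, Igf2, Plagl1 and Ddc (-4.85 to -3.95), were among the 25 largest falls of genes with at least 10 FPKM at either stage. Peg3, a paternally expressed zinc finger gene, had 9.39, 7.94 and 5.43 FPKM at 8w against 89.7, 74.9 and 75.4 FPKM at 3d (-3.08 ± 0.15). Grb10, an adaptor that restrains insulin and IGF1 receptors, had 31.3, 32.2 and 30.0 FPKM at 8w against 198, 208 and 205 FPKM at 3d (-2.49 ± 0.09), and Igf2r, the receptor that clears IGF2, changed by -1.78 ± 0.12. The ligand, its clearance receptor and this adaptor were therefore all lower at 8w. The 2 members that rose were Dcn (decorin, 1.46 ± 0.15) and Impact (0.7), the second outside the naming rule and named after its value was seen. Igf2bp1, Igf2bp2 and Igf2bp3, fetal proteins that bind the Igf2 messenger among others, changed by -2.44 ± 0.12, -2.19 ± 0.12 and -3.22 ± 0.13. Igf2bp3 had 0.112, 0.0826 and 0.0 FPKM at 8w against 9.09, 10.4 and 11.2 FPKM at 3d. Of their list of 12 tested oncofetal genes and let-7 targets, 6 fell, 0 rose and 6 did not pass; Hmga1 (-0.12) and Mycn (-0.35) were among those that did not pass. Mycn passed with edgeR (-0.73), with DESeq2 (-0.71), on the deposited scale (-0.53) and without 8w replicate 2 (-0.48).

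Noncoding RNAs of the imprinted clusters were lower as well. In the lncRNA table, 3618 genes had a mean of at least 0.5 FPKM, and 1000 of them (27.6%) passed the test, 482 higher (13.3%) and 518 lower (14.3%) at 8w, and 288 higher and 1035 lower on the deposited scale. H19, the maternally expressed RNA next to Igf2, had 14.3, 10.7 and 12.2 FPKM at 8w against 941, 738 and 688 FPKM at 3d (-5.59 ± 0.16, adjusted p = 1.25e-06). From the Dlk1 cluster, Meg3 had 9.74, 11 and 5.24 FPKM at 8w against 101, 72.2 and 49.1 FPKM at 3d (-2.66 ± 0.3), Rian changed by -2.11 ± 0.12 and Mirg by -1.71 ± 0.16. Airn, transcribed antisense within Igf2r, changed by -1.65 ± 0.17 and Kcnq1ot1, antisense to Kcnq1, by -0.49 ± 0.11. The Kcnq1ot1 call was lost without 3d replicate 2 (adjusted p = 0.0504) and with only the 6 libraries of 8w and 3d in the fit (adjusted p = 0.052). Nespos, the antisense RNA of the Gnas cluster, had 0.312, 0.0838 and 0.0 FPKM at 8w against 6.31, 5.96 and 5.43 FPKM at 3d (-2.33 ± 0.13), while Gnas itself, whose stages overlapped in FPKM, was 0.62 higher at 8w. No source used here gives the strand setting of the libraries, so reads of an antisense RNA and of the gene it overlaps cannot be told apart.

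Transcription factors of the cardiac lineage were mostly lower. Of 20 tested, 13 fell and 1 rose (2 without 3d replicate 1), with a median of -0.46. Hey2, a Notch target and repressor of the atrial programme in ventricular muscle, had 4.14, 2.26 and 3.22 FPKM at 8w against 36.7, 44.1 and 50 FPKM at 3d (-3.24 ± 0.18, adjusted p = 1.46e-07). Irx4, a ventricular factor, changed by -1.64 ± 0.21, Gata6 by -1.45 ± 0.11, Tbx20 by -1.16 and Hand2 by -1.08. Nkx2-5 had 3.45, 4.2 and 4.3 FPKM at 8w against 16.1, 10 and 6.69 FPKM at 3d, so that the 3d libraries differed among themselves more than in most named genes (-1.01 ± 0.23, adjusted p = 0.00316). Mef2c (-0.09) did not pass except on the deposited scale (-0.27, adjusted p = 0.0353), and Gata4 (-0.39) passed here but not with edgeR or DESeq2 on the estimated counts (adjusted p = 0.143 and 0.186). The member that rose was Smyd1, a methyltransferase of muscle, at 158, 155 and 152 FPKM at 8w against 120, 112 and 110 FPKM at 3d (0.62 ± 0.08).

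Genes tied to growth control and to the regeneration window of the newborn heart went the same way in most cases. Of 18 Hippo, Erbb and related genes, 11 fell and 3 rose (median -0.45). Tead2, a DNA-binding partner of YAP, had 3.87, 4.47 and 3.96 FPKM at 8w against 42.6, 23.6 and 22.8 FPKM at 3d (-2.35 ± 0.18). Erbb2, the coreceptor for neuregulin, had 1.93, 1.48 and 1.61 FPKM at 8w against 9.47, 8.01 and 6.45 FPKM at 3d (-1.56 ± 0.13), Erbb4 changed by -0.9, and Agrn (agrin), a matrix protein, by -1.31 ± 0.14. Fstl1, a secreted follistatin-like protein, changed by -1.56 ± 0.11. The effector Yap1 had overlapping values, with 28.8, 41.7 and 34.3 FPKM at 8w against 29.6, 31.4 and 29.6 FPKM at 3d, and passed on the centred scale (0.37 ± 0.12, adjusted p = 0.0184) but not on the deposited scale (adjusted p = 0.201) or after quantile normalization (adjusted p = 0.124), nor without 8w replicate 2 (0.26).

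Among contractile genes, the balance between the members of a gene pair changed. The share of the adult or muscle member in the summed FPKM of a pair was computed per library for 16 pairs, and in all 16 the stages did not overlap. The pairs were chosen with earlier results known, and 61.3% of all tested genes did not overlap in FPKM. Tnni1, the slow or fetal troponin I, made up 0.054%, 0.0364% and 0.00717% of both troponin I genes at 8w against 34.7%, 24.1% and 18.4% at 3d. Myh7, the fetal myosin heavy chain of rodents, made up 0.389%, 0.3% and 0.272% of Myh6 and Myh7 at 8w against 16.6%, 33.5% and 30.4% at 3d. Among the 3d libraries replicate 1, the one with the highest atrial markers, had the lowest Myh7 share. Alpha actin went the other way: Acta1, the skeletal form, had 52.5, 130 and 121 FPKM at 8w against 17.8, 12.8 and 12.2 FPKM at 3d (2.84 ± 0.29, adjusted p = 1.17e-05), yet it stayed at 1.85% ± 0.82 of both alpha actins at 8w and 0.329% ± 0.0501 at 3d.

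**Figure D3:**
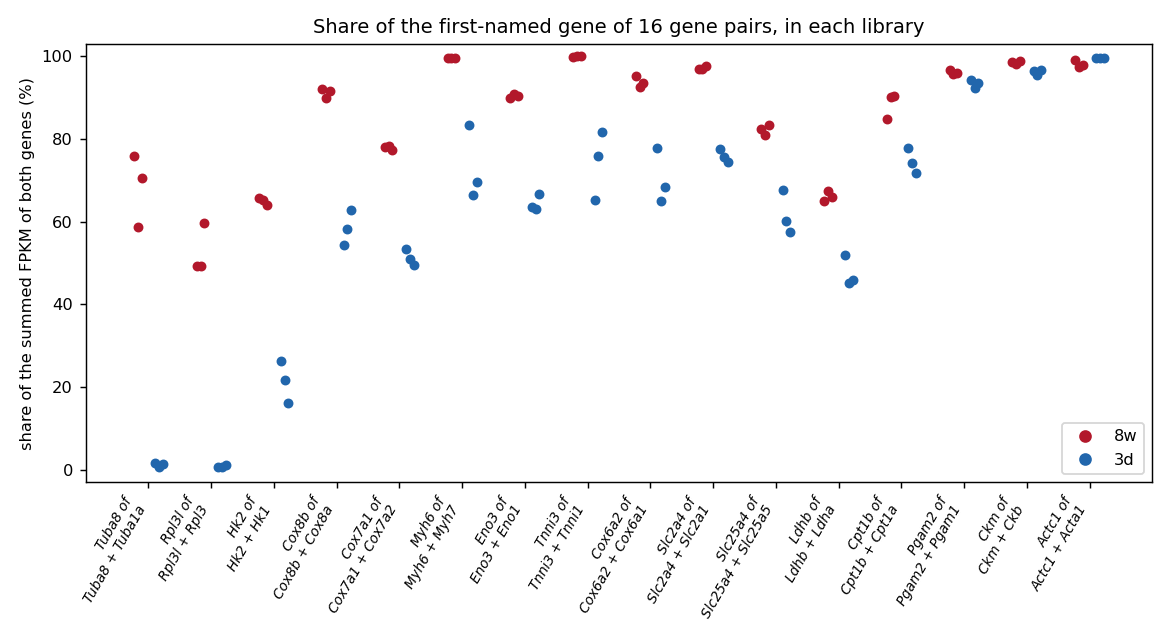
Share of the first-named gene in the summed FPKM of both genes of a pair (y axis, percent) in each of the 3 8w (red) and 3 3d (blue) libraries, for 16 pairs ordered by the difference between stages. The widest gaps are Tuba8 with 68.5% at 8w and 1.16% at 3d and Rpl3l with 52.9% and 0.884%; the Actc1 share is the single one that is lower at 8w.

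The share of the adult or muscle member was also higher at 8w in the pairs of metabolism and protein synthesis. The other member did not fall in every pair: Cox7a2 rose (0.96 ± 0.14), and Hk1 (-0.2), Ldha (-0.02) and Pgam1 (0.21) did not pass. Hk1 was called lower without 3d replicate 1 (-0.31), on the deposited scale (-0.37) and after quantile normalization (-0.38). Ldha was called lower after quantile normalization (-0.57). Rpl3l, the muscle copy of ribosomal protein L3, made up 49.4%, 49.4% and 59.8% of both L3 genes at 8w against 0.759%, 0.755% and 1.14% at 3d, while Rpl3 itself had 78.3, 77.8 and 63.9 FPKM at 8w against 170, 200 and 202 FPKM at 3d (-1.19 ± 0.12). Tuba8 made up 68.5% ± 8.78 of Tuba8 and Tuba1a at 8w and 1.16% ± 0.469 at 3d. Hexokinase 2 (Hk2) made up 65.0% ± 0.891 of Hk1 and Hk2 at 8w and 21.4% ± 5.08 at 3d. Of the cytochrome oxidase subunits with a heart form, Cox8b made up 91.2% ± 1.13 of both COX8 genes at 8w and 58.5% ± 4.21 at 3d, Cox7a1 made up 77.9% ± 0.54 and 51.3% ± 1.9 of both COX7A genes, and Cox6a2 made up 93.7% ± 1.36 and 70.5% ± 6.59 of both COX6A genes. Enolase 3 (Eno3) made up 90.4% ± 0.411 at 8w and 64.4% ± 1.89 at 3d of Eno1 and Eno3. The pairs already close to a single gene at 3d moved least, with Ckm at 98.6% ± 0.394 of Ckm and Ckb at 8w and 96.3% ± 0.574 at 3d. Reads of such paralogs may be split between copies by the counting where their sequences are alike.

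Of 29 tested genes of the adult sarcomere, Z-disc and M-band, 20 rose and 1 fell (3 without 3d replicate 1; median 0.86); after quantile normalization 14 rose and 8 fell (median 0.16), so the direction of the most abundant members depends on the scaling. Tcap, which caps titin at the Z-disc, had 151, 110 and 113 FPKM at 8w against 32.5, 28.2 and 19.6 FPKM at 3d (2.37 ± 0.16). Cmya5, a large protein of the Z-disc region, had 148, 145 and 153 FPKM at 8w against 30.8, 28.7 and 31.6 FPKM at 3d (2.44 ± 0.09), and Myot (myotilin) changed by 2.42 ± 0.16. Myh6, the adult myosin heavy chain, had 5872, 7264 and 7166 FPKM at 8w against 3949, 2643 and 2662 FPKM at 3d, which is 1.33 ± 0.19 higher on the centred scale but -0.08 after quantile normalization (adjusted p = 0.643). The member that fell was Synpo2l, a Z-disc protein that binds actin, at 34.5, 27.3 and 27.7 FPKM at 8w against 69.0, 81.0 and 71.4 FPKM at 3d (-1.1 ± 0.12). Of 16 tested fetal or slow contractile genes, 8 fell and 4 rose; Myl9, a smooth muscle light chain, had 26.4, 26.8 and 19.8 FPKM at 8w against 322, 196 and 191 FPKM at 3d (-3.02 ± 0.17). Myl7 (-0.06) and Myl4 (0.07), the atrial light chains, and the natriuretic peptides Nppa (-0.56) and Nppb (-0.13) did not pass, in libraries whose atrial markers ranged from 251 to 1350 FPKM. Nppa was called lower without 8w replicate 1 (-1.04), and Nppb without 3d replicate 1 (-0.44) and after quantile normalization (-0.54).
The MEF2 site, bound by a muscle transcription factor and searched as CTANNNNTAG, stood in 16.7% of 18 promoters of 15 sarcomere genes that rose, beside 3.69% of all promoters and 3.02% of those of tested genes. Its match is in capitals in the 100 bases before the start of the named genes that hold it there (chr2:67445902-67446001 and chr2:91118044-91118143, both plus strand).
Xirp2: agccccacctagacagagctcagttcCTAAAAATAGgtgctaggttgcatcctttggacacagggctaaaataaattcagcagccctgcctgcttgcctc
Mybpc3: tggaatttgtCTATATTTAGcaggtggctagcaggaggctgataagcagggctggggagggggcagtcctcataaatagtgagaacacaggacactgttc

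Genes that store and move calcium split. Of 27 tested, 11 rose and 10 fell (median -0.12). Several genes of the sarcoplasmic reticulum rose, although Casq1, named after its value was seen, was lower (-1.1): Atp2a2, the pump that refills it, had 3839, 3966 and 4081 FPKM at 8w against 1006, 1136 and 1148 FPKM at 3d (2.03 ± 0.12, adjusted p = 2.47e-07). Hrc, a calcium-binding protein within it, had 238, 179 and 213 FPKM at 8w against 38.9, 34.2 and 38.9 FPKM at 3d (2.63 ± 0.13), the pump's inhibitor Pln changed by 1.13 ± 0.15 (0.22 after quantile normalization, adjusted p = 0.19), and S100a1, a calcium sensor, by 1.87 ± 0.13. Several genes of calcium passage across the cell surface fell, although the channel subunit Cacna2d1, also named after its value was seen, was higher (1.31): Slc8a1, the sodium-calcium exchanger, had 128, 117 and 127 FPKM at 8w against 346, 349 and 345 FPKM at 3d (-1.3 ± 0.1), the L-type channel Cacna1c changed by -0.46, and the T-type channel Cacna1g by -1.34 ± 0.22. The structural protein Jph2, which ties reticulum to surface membrane, was 0.94 higher.

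Of 27 tested potassium, sodium and pacemaker channel genes, 17 rose and 6 fell (median 0.81). Kcnk3, a background potassium channel, had 45.6, 46.7 and 54.9 FPKM at 8w against 12.4, 8.68 and 7.17 FPKM at 3d (2.47 ± 0.15). Kcnd2 and Kcnip2, pore and accessory subunits of the transient outward current that shortens the rodent action potential, changed by 2.06 ± 0.14 and 1.88. Hcn2, a pacemaker-type channel, had 7.02, 7.95 and 7.51 FPKM at 8w against 0.736, 0.505 and 0.361 FPKM at 3d (2.65 ± 0.13), and Scn4b, a sodium channel beta subunit, had 3.68 to 5.41 FPKM at 8w and at most 0.0149 FPKM at 3d. The largest fall was Kcne1, a subunit of the slow delayed rectifier, with 13.9, 12.2 and 11 FPKM at 8w against 115, 64.5 and 58.5 FPKM at 3d (-2.35 ± 0.19), and its partner Kcnq1 changed by -0.44. Among receptors, the alpha-1A adrenergic receptor Adra1a had 11.6, 15.1 and 19.1 FPKM at 8w against 0.365, 0.402 and 0.274 FPKM at 3d (3.75 ± 0.17), while the beta-1 receptor Adrb1 overlapped between stages and did not pass (0.03 ± 0.16). Agtr2, the fetal angiotensin receptor, fell by 1.44 ± 0.19 on the log2 scale. In this list of 21 tested signalling genes 11 rose and 5 fell (median 0.41), with 3 falls without 3d replicate 2 or 8w replicate 1.

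Most genes of mitochondrial fuel use rose. Of 23 tricarboxylic acid cycle and linked genes, 23 rose (median 0.97), with summed FPKM of 7584, 7887 and 8303 at 8w against 4173, 4687 and 4524 at 3d. Ogdh, a subunit of the 2-oxoglutarate dehydrogenase complex, had 557, 593 and 653 FPKM at 8w against 196, 190 and 172 FPKM at 3d (1.87 ± 0.09), and Cs (citrate synthase) changed by 1.14 ± 0.09. After quantile normalization 19 rose and 1 fell, which was Idh2, 0.44 ± 0.12 higher on the centred scale and -0.3 after that scaling. Of 66 nuclear-encoded genes of oxidative phosphorylation, 57 rose and 2 fell (median 0.97), and after quantile normalization 39 rose and 3 fell (median 0.44). Cox7a1, the heart form of a cytochrome oxidase subunit, had 1296, 1407 and 1442 FPKM at 8w against 225, 285 and 215 FPKM at 3d (2.7 ± 0.12, adjusted p = 3.38e-08), the largest change of the list. The 2 that fell belong to pairs with a heart form, Cox6a1 (18.3, 25.4 and 30.0 FPKM at 8w against 106, 113 and 79.3 FPKM at 3d, -1.81 ± 0.16) and Cox8a (-0.91 ± 0.15). Cox7a2, the counterpart of Cox7a1, rose (0.96 ± 0.14). Of 38 genes of mitochondrial translation, 25 rose and 0 fell (median 0.58), with Mrps14, a ribosomal subunit, at 1.19 ± 0.13.

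Of 35 tested genes of fatty acid uptake and oxidation, 31 rose and 3 fell (median 1.09). Lpl, the lipase that frees fatty acids from lipoproteins, had 1392, 1423 and 1546 FPKM at 8w against 267, 373 and 359 FPKM at 3d (2.32 ± 0.15). Dgat2, which makes triglyceride, had 73.7, 86.5 and 86.3 FPKM at 8w against 12.5, 11.9 and 10.5 FPKM at 3d (2.89 ± 0.1), and Plin5, which coats lipid droplets at mitochondria, changed by 2.37 ± 0.16. Hadhb, a subunit of the trifunctional protein of beta oxidation, had 705, 722 and 737 FPKM at 8w against 215, 232 and 274 FPKM at 3d (1.77 ± 0.12). The 3 that fell were Acsl3, an acyl-CoA synthetase, with 4.82, 9.93 and 9.7 FPKM at 8w against 54.9, 76.8 and 90.2 FPKM at 3d (-2.88 ± 0.24), Cpt1a, the liver form of the mitochondrial gatekeeper (-0.73 ± 0.16), and Ucp2 (-0.77). Cpt1b, the muscle form of the gatekeeper, had 168, 176 and 186 FPKM at 8w against 161, 114 and 114 FPKM at 3d (0.64 ± 0.12), and replicate 1 gave the highest of the 3d values. After quantile normalization Cpt1b no longer passed (0.3, adjusted p = 0.0941).

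Genes of ketone and branched-chain amino acid use were higher, with 17 of 18 tested members that rose and a list median of 1.19. Bdh1 and Oxct1, the enzymes that burn ketone bodies, changed by 3.35 ± 0.25 and 2.3 ± 0.14: Bdh1 had 19, 13.2 and 19.4 FPKM at 8w against 0.386, 1.45 and 1.34 FPKM at 3d, and Oxct1 had 568, 536 and 559 FPKM at 8w against 102, 144 and 139 FPKM at 3d. Neither gene's stages overlapped, as in 61.3% of all tested genes. Ckmt2, the mitochondrial creatine kinase of muscle, had 877, 1054 and 1142 FPKM at 8w against 62.6, 75.7 and 82.6 FPKM at 3d (3.96 ± 0.18, adjusted p = 3.02e-08). Its cytosolic partner Ckm, with 607, 671 and 761 FPKM at 8w against 617, 537 and 446 FPKM at 3d, overlapped between stages; it was 0.54 ± 0.12 higher on the centred scale and -0.21 after quantile normalization (adjusted p = 0.184). Of 12 energy transfer genes 8 rose and 3 fell.

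Glycolysis changed less evenly, with 17 of 33 tested genes higher, 5 lower (8 without 3d replicate 1) and a median of 0.46. The RNA of the insulin-responsive glucose transporter rose and that of the basal one fell: Slc2a4 (GLUT4) had 101, 117 and 134 FPKM at 8w against 25.7, 27.8 and 23.2 FPKM at 3d (2.33 ± 0.11), and Slc2a1 (GLUT1) had 3.1, 3.63 and 3.27 FPKM at 8w against 7.4, 8.98 and 7.95 FPKM at 3d (-0.89 ± 0.11). The muscle phosphofructokinase Pfkm changed by 2.01 ± 0.1, whereas Aldoc fell by 2.04 ± 0.15 and Eno1 fell by 1.03 on the log2 scale. Pdk4, the kinase that shuts off pyruvate entry into the mitochondrion, had 840, 323 and 258 FPKM at 8w against 49.7, 68.0 and 90.9 FPKM at 3d (2.77 ± 0.38, adjusted p = 9.92e-05), and the 8w libraries differed more than 3-fold among themselves. Pgk1 (-0.18) and Ldha (-0.02) did not pass. Pgk1 was called lower without 3d replicate 1 (-0.37), on the deposited scale (-0.36) and after quantile normalization (-0.54), and Ldha after quantile normalization (-0.57). Gapdh ranged from 8.42 to 397 FPKM within 8w and from 5.75 to 158 FPKM within 3d, so no direction can be read from it.

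Of 25 tested nuclear receptors and coactivators, 12 rose and 5 fell (median 0.28); 2 to 3 fell when 3d replicate 1 or 2 or 8w replicate 1 or 3 was left out. Thyroid hormone receptor beta (Thrb) had 8.48, 9.38 and 9.43 FPKM at 8w against 1.1, 1.0 and 0.945 FPKM at 3d (2.5 ± 0.12, adjusted p = 4.21e-08). Receptor alpha (Thra) had 30.9, 41.2 and 42.1 FPKM at 8w against 59.9, 54.5 and 47.4 FPKM at 3d (-0.32 ± 0.12, adjusted p = 0.0369). The Thra call was lost without 3d replicate 1 or 2 or 8w replicate 1, where the change was -0.27, -0.31 and -0.19. It was also lost in limma with only the 6 libraries of 8w and 3d (adjusted p = 0.079), without trend (adjusted p = 0.0503) and with the replicate number as a block (adjusted p = 0.0604). Ppara, the lipid-sensing receptor of fatty acid oxidation genes, changed by 1.33 ± 0.17 and Esrra, an estrogen-related receptor, by 0.96 ± 0.16. Their coactivator Ppargc1a had 76.0, 65.4 and 69.0 FPKM at 8w against 70.8, 67.0 and 67.2 FPKM at 3d and did not pass (0.21 ± 0.09, adjusted p = 0.074), except without 8w replicate 2 (0.29, adjusted p = 0.0342). The estrogen-related receptor element, letters AAGGTCA, stood in 6.25% of the 48 promoters of oxidative phosphorylation genes that rose and 6.9% of the 29 of fatty acid genes that rose, beside 4.72% of all promoters and 3.07% of those of tested genes, that is in 3 and 2 promoters.

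Stress defence was regrouped. Of 25 antioxidant genes 17 rose and 4 fell (median 0.99). Sod2, the mitochondrial superoxide dismutase, had 172, 159 and 165 FPKM at 8w against 66.8, 75.9 and 73.9 FPKM at 3d (1.37 ± 0.1) and Nqo1 changed by 2.07 ± 0.13. The metallothioneins Mt1 and Mt2, which bind zinc, went down, by -1.17 ± 0.24 and -2.34 ± 0.32. Of 17 genes of small heat shock proteins and muscle protein turnover, 11 rose and 2 fell (median 0.63). Hspb8, a small heat shock protein of chaperone-assisted autophagy, had 160, 178 and 207 FPKM at 8w against 11.5, 13.1 and 10.8 FPKM at 3d (4.01 ± 0.11, adjusted p = 2.56e-09). Trim54 (MuRF3), a ubiquitin ligase of muscle, had 36.7, 38.8 and 39.4 FPKM at 8w against 2.37, 1.89 and 1.63 FPKM at 3d (3.92 ± 0.15), its relative Trim55 (MuRF2) had 43.6, 49.5 and 49.2 FPKM at 8w against 161, 157 and 157 FPKM at 3d (-1.54 ± 0.09), and Trim63 (MuRF1) did not pass (0.15). Of 54 cytosolic ribosomal protein genes, 3 rose and 11 fell with a median of -0.03; 20 fell without 3d replicate 1 and 7 without 8w replicate 2, and 22 fell on the deposited scale and 38 after quantile normalization, so their direction depends on the scaling.

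Matrix genes of the growing heart were lower and a smaller group was higher. Of 43 collagen and fibrillar matrix genes, 26 fell and 8 rose (median -0.75), with summed FPKM of 1376, 1622 and 1255 at 8w against 2944, 2498 and 2121 at 3d. Postn (periostin), made by activated fibroblasts, had 34.6, 40.0 and 21.4 FPKM at 8w against 429, 378 and 345 FPKM at 3d (-3.41 ± 0.17). Fn1 (fibronectin) had 13.4, 14.5 and 9.5 FPKM at 8w against 115, 100 and 83.8 FPKM at 3d (-2.73 ± 0.15), Fbn2, the fetal fibrillin, changed by -3.58 ± 0.14, Tnc (tenascin C) by -2.26 ± 0.19 and Col1a1 by -2.05 ± 0.18. Those that rose included Col8a1, a network collagen, with 7.91, 7.77 and 5.82 FPKM at 8w against 0.923, 0.796 and 0.742 FPKM at 3d (2.34 ± 0.13), and the small leucine-rich proteoglycans Dcn (1.46 ± 0.15), Ogn (1.15 ± 0.12) and Lum (0.87 ± 0.16). Of 22 matrix proteases and inhibitors 6 rose and 10 fell; Mmp14, a membrane collagenase, changed by -1.85 ± 0.14 and the secreted protease Htra3 by 1.8 ± 0.16. Fibroblast markers did not move in 1 direction: 3 of 14 rose (5 without 3d replicate 1 and 6 without 8w replicate 3), 6 fell, and their summed FPKM was 979 to 1321 at 8w against 1003 to 1397 at 3d (exact two-sided permutation p = 0.6). The 3 of this list that rose include Gsn (gelsolin, 2.48 ± 0.13) and Dcn, and the falls include Col1a1 and Postn, which are also in the matrix list.

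Antigen presentation genes rose. Of 6 tested genes of MHC class II presentation 6 rose (median 3.54). H2-Aa had 13.7, 26.7 and 17.8 FPKM at 8w against 0.843, 0.861 and 0.632 FPKM at 3d (3.65 ± 0.19), and H2-Eb1, a class II beta chain, had 10.4, 18.6 and 17.8 FPKM at 8w against 0.511, 0.478 and 0.135 FPKM at 3d (3.75 ± 0.2). Of 15 tested genes of MHC class I and the immunoproteasome, 14 rose and 0 fell (median 1.25); the class I heavy chain H2-K1 had 47.2, 61.6 and 47.5 FPKM at 8w against 10.4, 8.41 and 7.79 FPKM at 3d (2.61 ± 0.12) and the immunoproteasome subunit Psmb8 changed by 2.05 ± 0.16. Of 30 interferon-inducible genes 21 rose and 0 fell (median 0.77). Iigp1 and Gbp2, interferon-induced GTPases, changed by 1.98 ± 0.13 and 1.88 ± 0.13, and Isg15 (-0.02) did not pass. Macrophage markers moved with these genes: 8 of 9 tested rose and 0 fell, and all 12 summed to 156, 204 and 201 FPKM at 8w against 65.3, 46.7 and 46.7 FPKM at 3d (3.54-fold, exact permutation p = 0.1, the smallest possible). Lyz2 (lysozyme) changed by 2.91 ± 0.16, C1qa by 1.93 ± 0.18 and Emr1 (F4/80) by 1.87 ± 0.14, whereas Lyve1, named after its value was seen, did not pass (-0.01 ± 0.18). The part of these markers in the antigen presentation values was not tested. Lymphocyte markers were near 0 in both stages, with 9 of them summing to 0.51 to 2.42 FPKM at 8w and 0.223 to 0.916 FPKM at 3d.

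**Figure D4:**
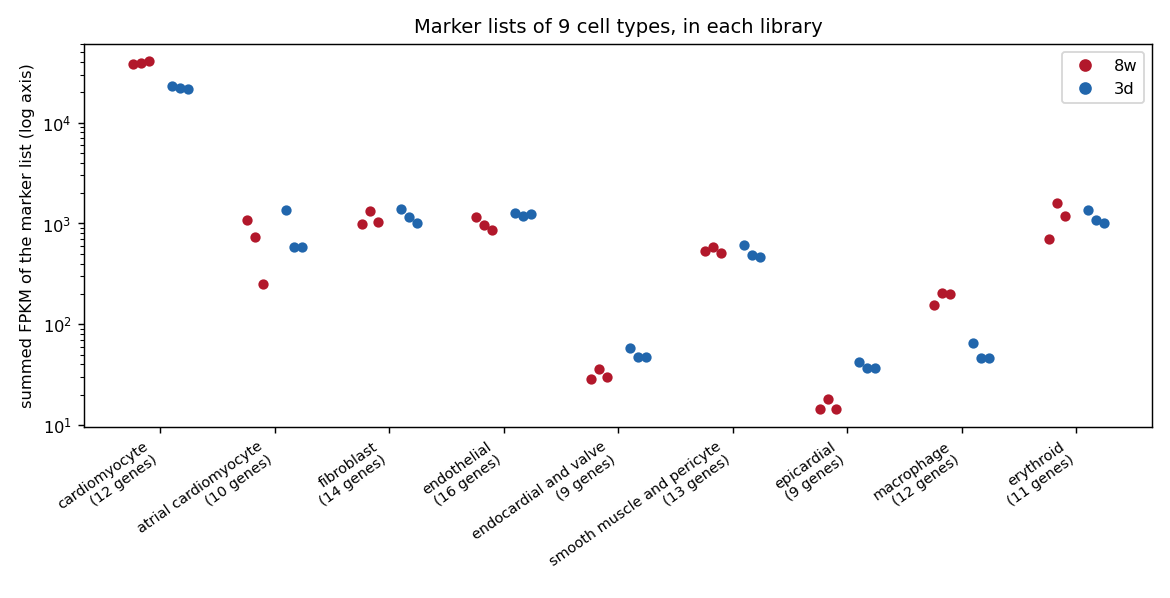
Summed FPKM of the markers of 9 cell types (log axis) in the 8w (red) and 3d (blue) libraries, each point a library, with the number of genes summed in brackets. Cardiomyocyte and macrophage sums are higher and epicardial and endocardial sums lower at 8w without overlap, fibroblast and smooth muscle sums overlap, and atrial sums vary within each stage.

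Other cell types differed less. Of 8 tested epicardial markers, 0 rose and 7 fell, and the list summed to 14.3, 18 and 14.6 FPKM at 8w against 41.8, 36.8 and 37.2 FPKM at 3d; 5 fell without 3d replicate 1. Tbx18, a factor of the epicardium, had 2.44, 1.68 and 1.77 FPKM at 8w against 7.05, 8.33 and 8.49 FPKM at 3d (-1.42 ± 0.14). Of 16 endothelial markers 4 rose and 1 fell (3 without 3d replicate 3, 2 without 8w replicate 1, and 5 on the deposited scale and after quantile normalization). The largest rise was that of the surface antigen Ly6c1 (1.67 ± 0.1). The endothelial sum was lower, at 1171, 960 and 867 FPKM at 8w against 1276, 1187 and 1232 FPKM at 3d (exact permutation p = 0.1, the smallest possible). Of 12 smooth muscle and pericyte markers 5 rose and 3 fell, with Rgs5, of pericytes, at 254, 252 and 220 FPKM at 8w against 85, 80.1 and 84.6 FPKM at 3d (1.7 ± 0.1). Acta2, of the same list, went down, with 80.3, 107 and 83.2 FPKM at 8w against 325, 243 and 242 FPKM at 3d (-1.39 ± 0.13). Cardiomyocyte markers counted 8 higher and 0 lower of 11 tested, but 1 higher and 4 lower after quantile normalization, where the median was -0.08. Of 8 erythroid markers 3 fell and 0 rose (1 without 8w replicate 1).

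Several of the largest changes were in genes outside these lists. Trim72 (MG53), which repairs the surface membrane of muscle, had 81.0, 89.7 and 83.3 FPKM at 8w against 4.45, 5.4 and 3.51 FPKM at 3d (4.17 ± 0.12). Mapt (tau), a microtubule protein best known from neurons, had 27.0, 31.6 and 33.0 FPKM at 8w against 0.433, 1.09 and 2.54 FPKM at 3d (4.02 ± 0.32). Ankrd23, an ankyrin repeat protein that binds titin, changed by 3.65 ± 0.15, the integrin subunit Itgb6 by 3.84 ± 0.12, the secretoglobin Scgb1c1 by 3.92 ± 0.14 and the nonmuscle myosin Myh14 by 3.4 ± 0.13. Among the falls, Ncam1, an adhesion molecule, had 2.94, 3.03 and 2.74 FPKM at 8w against 67.3, 72.7 and 66.4 FPKM at 3d (-3.98 ± 0.09, adjusted p = 1.02e-09). Hif3a, a member of the hypoxia-inducible factor family, had 0.943, 0.285 and 1.55 FPKM at 8w against 39.0, 41.1 and 38.7 FPKM at 3d (-4.27 ± 0.21). The X-linked genes Bex1 and Bex4 changed by -4.24 ± 0.14 and -4.31 ± 0.16. These genes were named by a rule that required stages without overlap, so their lack of overlap is no result. The low values still varied within a stage, as in Mapt at 3d and Hif3a at 8w.

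Outside the imprinted clusters, Neat1 was the named intergenic lncRNA that rose. Neat1, the scaffold of nuclear paraspeckles, had 241, 248 and 251 FPKM at 8w against 109, 91.3 and 70.2 FPKM at 3d (1.75 ± 0.16, adjusted p = 0.000155). Malat1, the most abundant of those named, had 10487, 10742 and 9244 FPKM at 8w against 15962, 13624 and 15324 FPKM at 3d; it did not pass on the centred scale (-0.27 ± 0.14, adjusted p = 0.19) and did on the deposited scale (-0.56, adjusted p = 0.0223). Dnm3os, the host of a microRNA cluster, changed by -1.23 ± 0.13. Plet1os, antisense to Plet1, had 5.16, 8.78 and 10.5 FPKM at 8w against 0.155, 0.0 and 0.0719 FPKM at 3d (3.33 ± 0.23). By class of lncRNA, the share called was 32.5% of 1406 intergenic and 24.3% of 1000 exon-overlapping entries; the second kind share reads with a coding gene, and 7 of the 8 largest named rises were of that kind.

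Circular RNAs, in which an RNA is joined back to an earlier point of itself, gave 625 testable species with at least 10 junction reads. Of these 16 (2.56%) passed edgeR's quasi-likelihood test, 6 higher (0.96%) and 10 lower (1.6%) at 8w, and 121 had an unadjusted p under 0.05. Junctions of Ttn stood out, with 528, 434 and 474 reads at 8w against 127, 149 and 210 at 3d, which is 9.69% to 12.8% of all junction reads of an 8w library and 4.76% to 5.4% of a 3d library. The 2 circles that rose held 1026 of the 1436 Ttn reads at 8w and 109 of the 486 at 3d, and the other Ttn junctions had 410 reads at 8w (3.28% of all junction reads) against 377 at 3d (3.93%). Of 24 tested Ttn circRNAs, 2 rose, 2 fell and the others did not pass. The 2 that rose end at the same exon, exon 120 of the GENCODE vM21 transcript that holds both ends (build GRCm38, minus strand). The circle of exons 86 to 120 (chr2:76857904-76884197) had 190, 117 and 186 reads at 8w against 12, 15 and 20 at 3d, 8.06-fold higher per junction read (exact 95% interval 5.97 to 11.1, counting error only; adjusted p = 6.33e-27). The circle of exons 87 to 120 (chr2:76857904-76881839) had 189, 184 and 160 reads at 8w against 19, 14 and 29 at 3d, 6.61-fold higher (5.07 to 8.74).

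The 2 Ttn circles that fell had no read at 8w. Exons 125 to 129 (chr2:76853605-76856366) had 0, 0 and 0 reads at 8w against 14, 18 and 25 at 3d, which is at least 24.7-fold lower against a floor of 3 reads over the group (adjusted p = 1.34e-12). With the counting error of both stages, the exact 95% interval of the ratio reached up to 0.0514. Exons 120 to 142 (chr2:76847388-76857987) had 0, 0 and 0 reads at 8w against 11, 7 and 12 at 3d, at least 13-fold lower against the same floor (adjusted p = 2.52e-06), with a ratio of up to 0.101 in the interval. Exon 120 is thus the last exon of both circles that rose and the first exon of a circle that fell. The linear Ttn RNA is listed at 0 in the coding table, so its level cannot be set beside these reads. The junctions are shown with the last 15 bases of the closing exon in lower case and the first 15 bases of the opening exon in capitals, read from the GENCODE transcript.
Ttn exons 86 to 120: cccctccagctaaagAACATGAAGTGCCTC
Ttn exons 87 to 120: cccctccagctaaagAACCCCCCAGGTTCA
Ttn exons 125 to 129: ctcccccaaccaaagAGGAGGAATGGACTT
Ttn exons 120 to 142: ctcctcctgcaaaagTCCCAGAGGCTCCAA

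**Figure D5:**
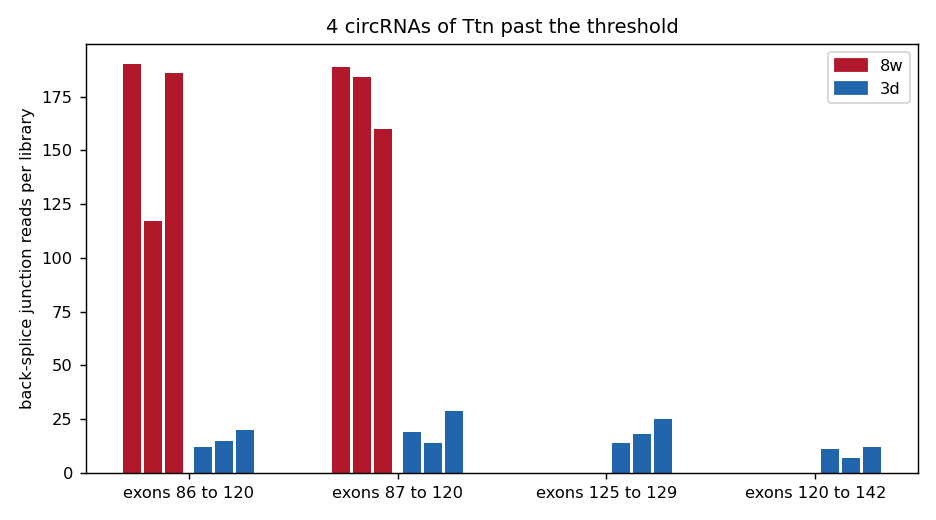
Back-splice junction reads per library (y axis, not scaled for depth) of the 4 Ttn circRNAs past the threshold, each bar a library, 8w in red and 3d in blue. The circles of exons 86 to 120 and 87 to 120 have 117 to 190 reads in each 8w library and 12 to 29 in each 3d library, and the circles of exons 125 to 129 and 120 to 142 have reads in 3d libraries only.

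The remaining called circRNAs came from 12 other genes, and each had fewer reads at 8w than either Ttn circle that rose. A circle from Mb (myoglobin) had 9, 26 and 13 reads at 8w against 0, 4 and 0 at 3d (9.23-fold, 3.38 to 35.2), and the linear Mb RNA was also higher (2.68 ± 0.12). A circle from an intron of Tulp4 had 78, 75 and 82 reads at 8w against 30, 39 and 40 at 3d (1.66-fold, 1.32 to 2.1), while linear Tulp4 did not pass (0.25 ± 0.11). A circle from Agtpbp1 had 5, 10 and 5 reads at 8w and none at 3d, at least 5.13-fold higher against the floor of 3 reads, with a lower interval limit of 3.8. Among those that fell, a circle from Arhgap5 had 4, 2 and 2 reads at 8w against 17, 9 and 16 at 3d (ratio 0.146, 0.0594 to 0.316) with linear Arhgap5 not past the test (-0.05 ± 0.13), and a circle from Stk39 had 7, 1 and 0 reads at 8w against 13, 12 and 18 at 3d (ratio 0.143, 0.0581 to 0.308) with linear Stk39 lower (-0.88 ± 0.17). No GENCODE transcript holds both ends of the Arhgap5, Mb or Tulp4 circle at exon edges, so their exons cannot be given. Of these 16 circRNAs, 6 passed under every alternative tried: the 4 of Ttn and those of Arhgap5 and Stk39. The Mb circle no longer passed without 3d replicate 3 or 8w replicate 2. The count itself was 8 without 3d replicate 3.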

How the data were processed

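Per the submitters' processing notes, reads were trimmed with cutadapt 1.9.1, aligned with HISAT2 2.0.4 and quantified with Cuffdiff (GRCm38, mm10). The authors deposited FPKM and estimated counts per coding gene and per lncRNA transcript, and counts of back-splice junction reads per circRNA, with no circRNA caller or annotation release named in these notes. The deposited estimated counts are fragments times 1 factor per library, and were rounded to whole numbers for edgeR and DESeq2. Another 9 columns there, on a log scale, repeat sample names and were set aside.

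Genes on chrM or chrY were left out. Coding genes with a mean of at least 1 FPKM and lncRNA genes with at least 0.5 FPKM (transcripts summed) over 9 libraries were tested with limma 3.58.1 (trend) on median-centred log2(FPKM + 1), and circRNAs with at least 10 reads with edgeR 4.0.16 quasi-likelihood and TMM, in R 4.3.3, each in 1 fit of 9 libraries with 6 residual degrees of freedom, adjusted by Benjamini-Hochberg. Alternatives are in the closing section, among them DESeq2 1.42.0. On simulated data the coding fit recovered 79% of 2-fold and 95% of 4-fold changes, the lncRNA fit 9% and 48%, and the circRNA fit 0% and 32%. Of 11915 coding identifiers, 11844 were found in GENCODE vM21. Gene lists, markers, pairs and the rule for named genes (the 25 largest changes in each direction at 10 FPKM or more without overlap, the 3 largest of each list with its largest opposite change, preset key genes, and members of pairs) were chosen with earlier results of these data known; a few further members are named after their values were seen. Intervals and floors cover counting error only. The values of 1 member of the gene lists are not reported here.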

Additional observations from a re-analysis of the deposited data

How the results depend on the processing

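Counts of coding genes called kept within 1.5 times of 6575 under the other scalings, tools, pseudocount and filters (5046 to 9186), apart from a required 2-fold change, which gave 2029 genes, 1105 higher and 924 lower. With no filter on low values 5857 coding genes were higher. Leaving out each replicate in turn gave 5891 to 6660. For lncRNA genes, a mean of at least 2 FPKM gave 627 calls, 277 of them higher, no filter gave 6304, with 5657 higher, and the deposited scale, on which the median lncRNA was -0.3, gave 288 higher and 1035 lower. For circRNAs, at least 20 reads gave 25 calls with 14 higher, no filter gave 10 with 3 higher, and leaving out each replicate in turn gave 8 to 18 in all, 2 to 10 higher and 6 to 11 lower. The direction of 4 named genes turned after quantile normalization, which moves the most abundant genes: Actc1 (-1.01), Ckm (-0.21), Idh2 (-0.3) and Myh6 (-0.08); the cause was not tested. Cox6a2 (0.25) and Mybpc3 (0.04) kept their direction there but not their call, and Hk1 was called lower there (-0.38). Of 155 called coding genes in the text, 144 kept their direction and call under every alternative, as did 19 of 23 named lncRNAs and 6 of 16 circRNAs.

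With the replicate number as a block, 6363 coding genes, 869 lncRNA genes and 14 circRNAs were called. The numbers only name the samples: deviations of same-numbered libraries correlated at -0.144, 0.022 and -0.154, and not every library correlated best with its own number. Simulated 2-fold changes were recovered in 9% of cases for lncRNA genes and 0% for circRNAs, against 79% for coding genes. The simulation changed a set number of features, not matched to the number called in the data, so these rates need not hold here. Simulated 4-fold changes of lncRNA genes were estimated at a median log2 size of 1.22. Changes of 2-fold in lncRNAs and circRNAs may therefore have gone undetected.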

Other observations

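Of 18 tested clock genes, 6 (33.3%) were higher and 4 (22.2%) lower at 8w (median 0.14). These shares were near the 28.4% and 26.8% of all tested genes. On the deposited scale 4 clock genes were higher and 7 lower (median -0.04). Arntl, an activator of the clock, had 7.99, 9.61 and 12.1 FPKM at 8w against 4.27, 3.73 and 4.36 FPKM at 3d (1.25 ± 0.15), and its target Per2, a repressor, had 1.35, 2.29 and 1.37 FPKM at 8w against 8.9, 7.48 and 6.14 FPKM at 3d (-1.5 ± 0.15). No label gives an hour of collection. Of 15 tested immediate early and heat shock genes, 3 were higher and 5 lower (median -0.05), beside 28.4% higher and 26.8% lower of all tested genes. The largest change of this list was a rise. Hsph1 had 15.2, 19.3 and 17.9 FPKM at 8w against 4.02, 4.34 and 4.52 FPKM at 3d (1.98 ± 0.12). Fos had 3.12, 4.23 and 4.28 FPKM at 8w against 8.33, 34.3 and 16.3 FPKM at 3d (-1.7 ± 0.41), with wide differences among the 3d libraries.

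Olfr608, listed as an olfactory receptor gene on chromosome 7 and picked out after its values were seen, is listed at 0 in all 3 8w libraries and had 15.1, 9.1 and 8.75 FPKM at 3d.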
